A study of Mus musculus with 16 samples.

Results

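Asns, Psat1, Phgdh, Shmt2, Mthfd2, Chac1, Trib3, Ddit3, Atf4 and Slc7a11 are 10 genes of the amino acid branch of the stress response that the transcription factor ATF4 controls. They were taken by gene symbol, with all their probes, from the 16593 genes named on the array, and all 10 had a probe (14 probes in all). The group was chosen by a value measured on these arrays: the level of Asns was higher in Rest knockout cells than in control cells on every day. The values of Asns are therefore a description with no test, and the tests below concern the other 9 genes, which serve to ask whether they followed Asns. Of the 10 genes, 7 passed the filter on dim probes, which asked for a detection p-value below 0.01 on both arrays of at least 1 group. A probe is called above background on an array where that p-value is below 0.01. Shmt2, Trib3 and Slc7a11 did not pass.

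The knockout group was REST-/- mouse embryonic stem cells and the control group REST+/+ stem cells, each with 2 arrays when undifferentiated (day 0) and as embryoid bodies after 3, 6 and 9 days, which makes 16 Illumina bead arrays in 8 groups. REST is a repressor that silences neuronal genes outside the nervous system. Both genotypes were kept without feeder cells in serum medium with leukemia inhibitory factor, non-essential amino acids and L-glutamine at day 0. The factor was then withdrawn, and cells were aggregated in hanging drops and moved to suspension, in otherwise the same medium. The labels name no separate lines or clones within a genotype, so the loss of Rest and any other difference between the knockout and control cells cannot be told apart. The labels give arrays of a group numbers without naming separate cultures, so the p-values rest on a spread between arrays that may be technical.

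ATF4 is a basic leucine zipper transcription factor that is regulated mainly at translation: when a kinase such as GCN2, which senses uncharged tRNA, phosphorylates eIF2alpha, most translation slows and that of the Atf4 mRNA increases. ATF4 protein then switches on genes for amino acid synthesis, uptake and tRNA charging through composite sites shared with C/EBP factors. The arrays measured mRNA alone, so that neither eIF2alpha phosphorylation nor ATF4 protein was observed. In stem cell cultures, serine and one-carbon enzymes of this group feed nucleotide synthesis and methylation.

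The composite site read by ATF4 was searched as TGATGNAA, on both strands, in RefSeq promoter windows of the GRCm38.p6 build, which run from 250 bases before to 50 bases after a gene's start. The antioxidant element bound by NRF2 was searched as TGACNNNGC in the same windows, and no match of one pattern overlapped a match of the other in the windows of these genes. All 10 genes had a window, and Psat1 had 2. The Asns window is shown because Asns gave the group its pattern. The parts of the Chac1 and Slc7a11 windows around a composite match are shown to compare with it. Capitals mark the matches that are shown whole. In Asns, the first run is an antioxidant match on the opposite strand and the second a composite match. The Slc7a11 part ends inside that gene's second composite match, whose shown bases are left in small letters.
Asns (chr6:7693160-7693459, minus strand): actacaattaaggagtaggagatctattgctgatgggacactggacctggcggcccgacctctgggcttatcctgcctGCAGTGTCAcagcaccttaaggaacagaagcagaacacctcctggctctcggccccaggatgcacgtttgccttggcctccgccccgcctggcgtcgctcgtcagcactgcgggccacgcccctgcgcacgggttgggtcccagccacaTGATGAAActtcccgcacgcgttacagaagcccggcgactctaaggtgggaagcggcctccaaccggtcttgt
Chac1 (chr2:119351033-119351072, plus strand): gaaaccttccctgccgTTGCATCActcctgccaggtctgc
Slc7a11 (chr3:50443656-50443695, minus strand): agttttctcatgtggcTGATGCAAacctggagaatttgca
The Asns composite match TGATGAAA lay 23 to 16 bases before the start, on the strand of the gene. The Chac1 match, on the opposite strand as TTGCATCA, began 193 bases before the start. Slc7a11 had 2 composite matches, which began 66 and 47 bases before the start, and Trib3 had 1, TTACATCA on the opposite strand, which began 15 bases after it. No composite match stood in these windows of Psat1, Phgdh, Shmt2, Mthfd2, Ddit3 or Atf4. The pattern was present in 3.97% of 32851 windows, and the antioxidant pattern, found here in Asns and Phgdh, in 12.4%. Counted by gene, 4 of the 10 had a composite match and 2 an antioxidant match, and over 27025 genes the shares were 4.51% and 14%. A match of letters is a description and not a bound site.

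Asns encodes asparagine synthetase, which makes asparagine from aspartate and glutamine. Its gene lies at chr6:7675165-7693209 (GRCm38.p6). The deposited intensity of its brightest probe was 11293 and 10286 in knockout cells at day 0, against 5076 and 5944 in control cells. At day 3 it was 2727 and 3346 in knockout bodies, against 1767 and 1778 in control bodies. At day 6 it was 3080 and 3852 in knockout bodies, against 1740 and 1426 in control bodies. Both knockout arrays were the brighter on each of these days. At day 9 it was 2196 and 1915 in knockout bodies, against 843 and 773 in control bodies, which was the widest ratio between the genotypes.

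After background correction, quantile normalization and log2, which give the normalized log2 intensity used from here on, Asns averaged 13.31 ± 0.03 in knockout cells and 12.60 ± 0.06 in control cells at day 0 (SD, n = 2 each). It averaged 11.39 ± 0.05 in knockout bodies and 10.88 ± 0.04 in control bodies at day 3, and 11.70 ± 0.20 in knockout bodies and 10.57 ± 0.22 in control bodies at day 6. It averaged 10.96 ± 0.01 in knockout bodies and 9.68 ± 0.16 in control bodies at day 9. The knockout minus control difference was 0.71, 0.51, 1.13 and 1.27 at days 0, 3, 6 and 9, with an SE of 0.15 each, or 1.64-fold, 1.43-fold, 2.19-fold and 2.42-fold. The average over the days was 0.91 ± 0.07 (SE), or 1.88-fold. What was steady was thus the side of the difference, while the level itself was highest at day 0 in both genotypes. In the RNA of whole cultures and bodies, fewer cells that express a gene and less RNA per cell cannot be told apart.

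The order of the Asns group means ran from knockout day 0 and control day 0 through knockout days 6, 3 and 9 to control days 3, 6 and 9. Every neighbouring pair in it differed by more than the SE of a difference except knockout day 9 and control day 3, which were 0.08 apart. The difference from day 0 on the log2 scale was -1.91, -1.61 and -2.35 at days 3, 6 and 9 in knockout bodies, and -1.72, -2.03 and -2.91 in control bodies. The second probe of Asns gave knockout minus control differences of 0.84, 0.51, 0.96 and 1.21 at days 0, 3, 6 and 9 (SE 0.16 each). The dimmest probe gave 0.61, 0.30, 0.93 and 1.20 (SE 0.31 each), so its day 3 difference was smaller than its SE. At day 9 the dimmest probe averaged 7.70 ± 0.95 in knockout bodies (SD, n = 2), and it was above background on 1 of 2 control arrays. With each of the 3 probes, both knockout arrays lay above both control arrays on all 4 days. Among the 7505 genes that passed the filter, 133 (1.77%) had both knockout arrays above both control arrays on all 4 days, and 95 (1.27%) had both below. The shares of genes separated on fewer days were not counted, so such separations of single genes below are descriptions only.

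**Figure D1:**
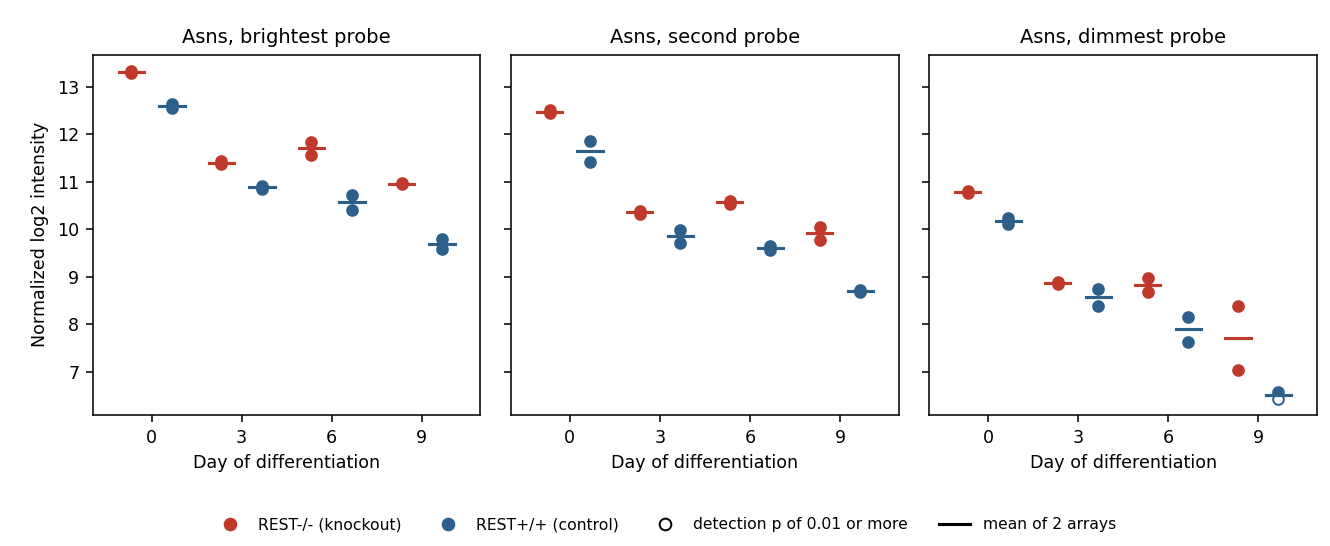
Normalized log2 intensity (vertical axis) of the 3 Asns probes, a panel each, by day of differentiation (horizontal axis), with knockout arrays left of control arrays and lines at the mean of 2 arrays. Both knockout points lie above both control points on all 4 days in each panel, and both genotypes are highest at day 0.

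Atf4, the transcription factor of the pathway, had the largest average difference of the tested genes other than Asns. Its normalized log2 intensity was 9.12 and 9.12 in knockout cells at day 0, against 8.25 and 8.52 in control cells. At day 3 it was 8.13 and 8.39 in knockout bodies, against 7.91 and 7.89 in control bodies, and at day 6 it was 8.00 and 8.13 in knockout bodies, against 7.65 and 7.50 in control bodies. On these 3 days both knockout arrays lay above both control arrays. At day 9 the arrays overlapped, with 7.93 and 7.55 in knockout bodies, against 7.17 and 7.60 in control bodies. The knockout minus control difference was 0.74, 0.36, 0.49 and 0.36 at days 0, 3, 6 and 9, with an SE of 0.17 each.

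Over the 4 days Atf4 was 0.49 ± 0.09 (SE) higher in knockout cells, or 1.40-fold (limma, Benjamini-Hochberg adjusted p = 0.0023). By single days it passed the adjusted threshold of 0.05 at day 0 (1.66-fold, limma adjusted p = 0.0426) and not at day 3, 6 or 9 (limma adjusted p = 0.282, 0.254 and 0.318). The average held under all 26 alternatives tried, with limma adjusted p-values between 9.9e-04 and 0.0085. The limma adjusted p at day 0 lay between 0.0215 and 0.200 over its 27 alternatives, and the call was lost under 15 of them. Among these were fits without either array of control day 0, control day 3, knockout day 0, knockout day 3 or knockout day 6 (0.0504 to 0.196) and the fit with only the 4 arrays of day 0 (0.200).

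Psat1 encodes phosphoserine aminotransferase, the enzyme of the middle step of serine synthesis from glycolysis. Its normalized log2 intensity was 11.41 and 11.40 in knockout cells at day 0, against 11.10 and 11.06 in control cells. At day 3 it was 10.10 and 9.96 in knockout bodies, against 9.61 and 9.52 in control bodies, and at day 6 it was 9.62 and 9.71 in knockout bodies, against 8.93 and 9.34 in control bodies. The knockout arrays were all above the control arrays on these 3 days. At day 9 it was 8.22 and 8.15 in knockout bodies, against 8.29 and 8.21 in control bodies, where the genotypes overlapped and the sign of the difference turned.

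The Psat1 difference was 0.33, 0.47, 0.53 and -0.07 at days 0, 3, 6 and 9 (SE 0.14 each). Its average, 0.31 ± 0.07 (SE), or 1.24-fold, passed the threshold (limma adjusted p = 0.0120), and it held under all 26 alternatives (limma adjusted p between 0.0023 and 0.0334). No single day passed (limma adjusted p = 0.315, 0.0681, 0.0966 and 0.867). Leaving out either control array of day 6 brought day 3 past the threshold (limma adjusted p = 0.0327 without replicate 1 and 0.0322 without replicate 2). Without control day 6 replicate 2, the day 6 difference was 0.73 (limma adjusted p = 0.0130).

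Phgdh, the first and committed enzyme of serine synthesis, did not pass the threshold in any comparison of the genotypes. Its normalized log2 intensity was 7.40 and 7.69 in knockout cells at day 0, against 7.60 and 7.45 in control cells, and the genotypes overlapped on all 4 days. The average difference was 0.01 ± 0.12 (SE, limma adjusted p = 0.957). Of the mitochondrial folate enzymes, Mthfd2, a dehydrogenase of one-carbon metabolism, was 7.57 and 7.70 in knockout cells at day 0, against 7.37 and 7.38 in control cells. That difference was 0.26 ± 0.21 (SE, limma adjusted p = 0.658). Mthfd2 passed the filter through the knockout day 0 group alone, and after day 0 it was above background on 1 array, knockout day 6 replicate 2. The other one, Shmt2, which splits serine into glycine and a one-carbon unit, had 2 probes, above background on 0 and 1 of the 16 arrays. Where it came nearest, at day 0, the deposited intensity of the probe seen on 1 array was 96.9 and 111 in knockout cells, against 47.2 and 69.2 in control cells.

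Chac1, an enzyme that degrades glutathione, was measurable at day 0 only. Its normalized log2 intensity there was 8.78 and 9.12 in knockout cells, against 8.43 and 8.23 in control cells. Both knockout arrays lay above both control arrays, by 0.62 ± 0.17 (SE) or 1.54-fold, which did not pass (limma adjusted p = 0.0720). It passed with an offset of 50 in place of 16 (limma adjusted p = 0.0317), and its adjusted p lay between 0.0317 and 0.444 over the alternatives. From day 3 on, both genotypes were below background, so that no comparison of them could be made.

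Ddit3, which encodes CHOP, a transcription factor of prolonged stress, was 8.39 and 8.17 in knockout cells at day 0, against 8.22 and 8.16 in control cells. The average difference was -0.0041 ± 0.11 (SE, limma adjusted p = 0.988). Its dimmer probe was 7.34 and 7.66 in knockout cells at day 0, against 7.11 and 7.27 in control cells. On the dimmer probe both knockout arrays lay above both control arrays at day 0, and on the brighter probe the genotypes overlapped. Trib3, a pseudokinase that dampens ATF4 activity, had intensities between -1.89 and 81.2 and passed the detection threshold on 0 of 16 arrays. Slc7a11, the cystine and glutamate exchanger, had intensities between -35.8 and 16.6 and was likewise above background on none of the 16 arrays. With the filter taken off, the average knockout minus control differences of Shmt2, Trib3 and Slc7a11 were 0.02, -0.02 and 0.05 (limma adjusted p = 0.929, 0.955 and 0.771 over 16593 genes).

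**Figure D2:**
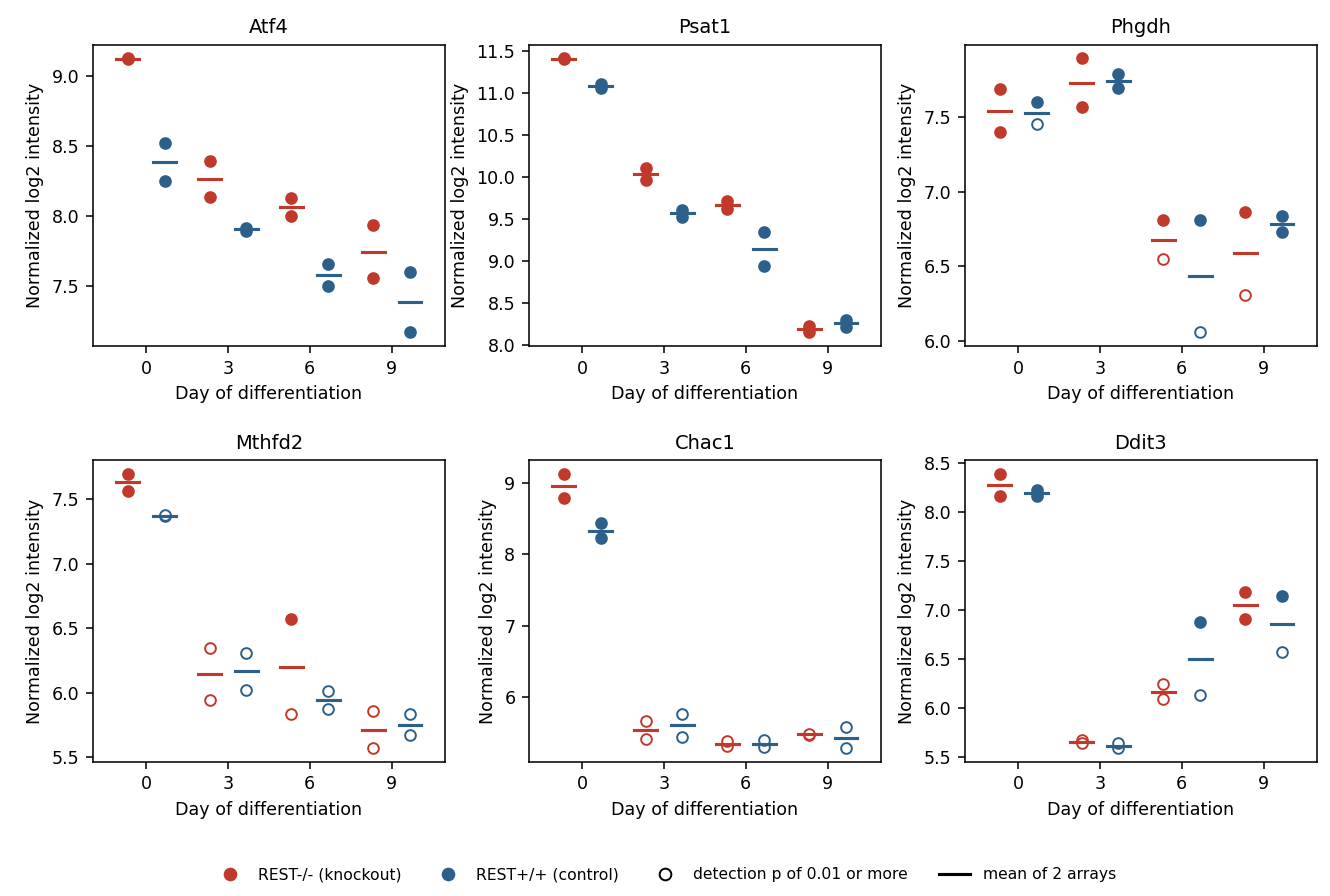
Normalized log2 intensity (vertical axes, which differ between panels) of the 6 tested genes other than Asns by day of differentiation (horizontal axes), with knockout arrays left of control arrays, open points where the detection p-value was 0.01 or more and lines at the mean of 2 arrays. Knockout points of Atf4 and Psat1 lie above control points at days 0, 3 and 6, and Chac1 is above background only at day 0.

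Counted over the 6 tested genes other than Asns, 2 (33.3%) were called higher in the knockout over the 4 days, Atf4 and Psat1, and none lower. Over all 7505 genes the share called was 5.17% higher and 5.08% lower. Atf4 and Psat1 were above background on every array, while the averages of Mthfd2, Chac1 and Ddit3 include days without a measured level. At day 0, where all 6 were above background in both genotypes on at least 1 array, 1 was higher (Atf4) and none lower, with 1.41% and 0.773% of all genes called in those directions. Mthfd2 had entered through the knockout day 0 group, so the side of its day 0 difference is no result.

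After day 0 fewer of the 6 could be compared. At day 3, 3 were above background, Psat1, Phgdh and Atf4, and the other 3 were below it in both genotypes. None was called in the limma fit (unadjusted p below 0.05 for 1, Psat1), against 3.94% higher and 2.85% lower over all genes. At day 6 the same 3 were above background in both genotypes, Mthfd2 and Ddit3 in 1 genotype each and Chac1 in neither, and none was called (unadjusted p below 0.05 for 2, Psat1 and Atf4), against 1.43% higher and 0.32% lower. At day 9, 4 were above background in both genotypes, with differences of -0.19 for Phgdh, -0.07 for Psat1, 0.19 for Ddit3 and 0.36 for Atf4. None was called there in the limma fit, and none had an unadjusted p below 0.05, against 2.69% higher and 2.43% lower over all genes. Asns had its largest difference of the 4 days, 1.27, at day 9.

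**Figure D3:**
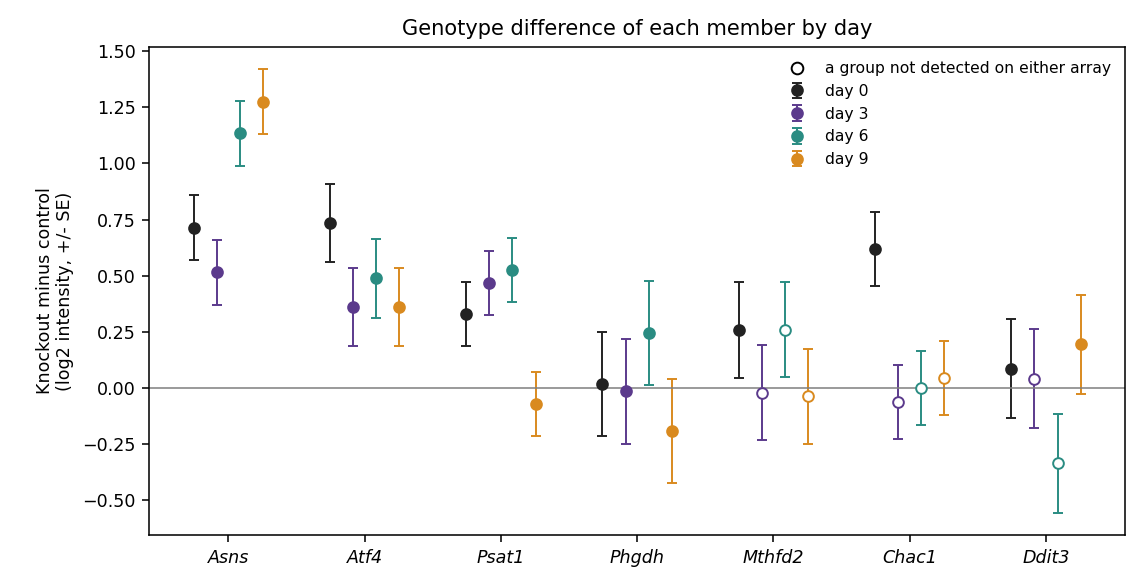
Knockout minus control difference in normalized log2 intensity (vertical axis, bars are SE) of Asns and the 6 tested genes (horizontal axis) at days 0, 3, 6 and 9, with open points where at least 1 of the genotypes was below background on both arrays. Asns lies between 0.51 and 1.27, Atf4 between 0.36 and 0.74, Psat1 is at -0.07 at day 9, Chac1 is at 0.62 at day 0, and the filled points of Phgdh, Mthfd2 and Ddit3 lie between -0.19 and 0.26.

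The course of each gene over the days was compared with its own day 0. Psat1, Atf4 and Ddit3 fell at days 3, 6 and 9 in both genotypes. Phgdh was at 0.19 above day 0 in knockout bodies and 0.22 above it in control bodies at day 3 (limma adjusted p = 0.549 and 0.459), and fell at days 6 and 9 in both. Chac1 and Mthfd2 also fell on each day, but they had passed the filter through day 0 groups alone, so this direction was fixed by the filter and is not counted. Over all genes, the shares that fell at days 3, 6 and 9 were 21.6%, 29.9% and 34.2% in knockout bodies, and 24.4%, 30.6% and 34% in control bodies.

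Chac1 was at least 4.55-fold, 4.90-fold and 5.35-fold lower at days 3, 6 and 9 than at day 0 in knockout bodies, and at least 2.85-fold, 3.42-fold and 3.49-fold lower in control bodies. These are lower bounds, since they set the day 0 mean against the lowest signal counted as detected on the later arrays. Psat1 fell, with log2 changes of -1.37, -1.74 and -3.22 at days 3, 6 and 9 in knockout bodies, and -1.51, -1.94 and -2.82 in control bodies. Atf4 fell, with log2 changes of -0.86, -1.06 and -1.38 in knockout bodies, and -0.48 and -0.81 at days 3 and 6 in control bodies, whose day 9 level was 0.499 times that of day 0. The control change of Atf4 at day 3 had a limma adjusted p of 0.0314, which was lost without control day 0 replicate 2 or either control array of day 3 (0.0926 to 0.193).

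Ddit3 had another course on its brighter probe. It was below background in both genotypes at day 3. At day 9 it was again above background on both knockout arrays and on 1 of 2 control arrays. It was at least 2.85-fold lower at day 3 than at day 0 in knockout bodies and at least 2.58-fold lower in control bodies. At day 9 its log2 change from day 0 was -1.23 in knockout bodies and -1.34 in control bodies. The dimmer Ddit3 probe did not show this return. At day 9 that probe was above background on no array, with changes of -1.67 in knockout bodies and -1.27 in control bodies. Mthfd2 was at least 1.83-fold lower at day 3 and 2.15-fold lower at day 9 in knockout bodies, and at least 1.47-fold and 1.80-fold lower in control bodies. Phgdh had a log2 change of -0.96 at day 9 in knockout bodies and -0.74 in control bodies, and the control change (limma adjusted p = 0.0103) was lost without control day 0 replicate 1 or control day 9 replicate 2 (0.0588 and 0.0578).

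No difference between the genotypes in the change from day 0 passed the threshold for the 6 genes at days 3, 6 and 9 (limma, lowest adjusted p 0.165, 0.383 and 0.313). The lowest unadjusted p-values, below 0.05 on each day, were those of Chac1, which was below background in both genotypes after day 0, so that they restate its day 0 difference. Over all genes, 2.66%, 1.01% and 2.25% were called. For Asns the difference in the change was -0.20, 0.42 and 0.56 at days 3, 6 and 9, with an SE of 0.21 each. For Atf4 it was -0.38, -0.25 and -0.38 (SE 0.25 each), and for Psat1 it was 0.14, 0.20 and -0.40 (SE 0.20 each).

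A list of 25 other genes known to be regulated by ATF4 was examined for the same question, of which 22 were on the array and 18 were tested. In the average over the days, 3 (16.7%) were higher in the knockout and 1 lower, beside the 5.17% and 5.08% of all genes given above, and the median of the 18 was 0.06. Aldh1l2, a mitochondrial folate dehydrogenase, was 0.48 ± 0.11 higher (SE, limma adjusted p = 0.0103). Nars, the asparaginyl-tRNA synthetase that uses the product of asparagine synthetase, was 0.29 ± 0.07 higher (limma adjusted p = 0.0129). Ddit4, an inhibitor of mTORC1, was 0.27 ± 0.08 higher (limma adjusted p = 0.0381), and Sesn2, a leucine sensor that also restrains mTORC1, was lower, with a difference of -0.37 ± 0.11 (limma adjusted p = 0.0490). The Ddit4 difference was 0.15, 0.90, 0.23 and -0.19 at days 0, 3, 6 and 9, so its sign turned at day 9. Of these 4 genes, Ddit4 was above background on every array. Aldh1l2 was above background at day 0 in the knockout and at day 9 in both genotypes, on no other array, and Nars was below it on some or all arrays at days 6 and 9. Sesn2 was above background on 4 arrays, both knockout arrays of day 0, control day 0 replicate 1 and control day 3 replicate 2. The averages of these 3 genes thus include days without a measured level.

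At day 0, 3 of the 18 (16.7%) were higher and none lower, against 1.41% higher and 0.773% lower over all genes. The genes called on single days were picked out after their values were seen. Nars was 8.26 and 7.97 in knockout cells, against 7.40 and 7.63 in control cells, a difference of 0.60 (limma adjusted p = 0.0338). Aldh1l2 and Atf5, a transcription factor related to ATF4, were not above background in control cells, and were at least 1.03-fold and at least 1.16-fold higher in the knockout (limma adjusted p = 0.0232 and 0.0323). At day 3, 1 was higher and 2 lower, against 3.94% and 2.85% of all genes. Ddit4 was 0.90 higher (limma adjusted p = 0.0020), and Cth, an enzyme that makes cysteine, was lower, with a difference of -0.95 (limma adjusted p = 0.0285). Vldlr, a lipoprotein receptor, was not above background in knockout bodies and was at least 1.52-fold lower there (limma adjusted p = 0.0034). At days 6 and 9 the limma fit called none (unadjusted p below 0.05 for 1 and 3), against 1.43% and 2.69% higher and 0.32% and 2.43% lower over all genes. The median of the 18 was 0.28 at day 0 and -0.08 at day 9. Their difference between the genotypes in the change from day 0 had medians of -0.16, -0.26 and -0.35 at days 3, 6 and 9. It was above 0 for 5, 4 and 2 of the 18, against 50.6%, 49.2% and 49.8% of all genes. In the limma fit 2, 1 and 0 were called lower and none higher, against 2.66%, 1.01% and 2.25% of all genes called in either direction.

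Several of the average and single-day calls of this list were lost under other settings. The averages of Aldh1l2 and Nars held under every alternative, and so did the day 3 difference of Ddit4. The average of Ddit4 was lost on leaving out any 1 of 11 arrays, all but control day 0 replicate 1, control day 3 replicate 1, knockout day 0 replicate 1, knockout day 6 replicate 2 and knockout day 9 replicate 1. The average of Sesn2 was lost on leaving out any 1 of 14 arrays, all but control day 3 replicate 1 and control day 6 replicate 2. At day 0, Aldh1l2 was lost without control replicate 2 or either knockout array, Atf5 without either control array or knockout replicate 1, and Nars without control replicate 1 or knockout replicate 1 of day 0, either control array of day 9, or any 1 knockout array of day 3 or 6. Cth was lost without control day 3 replicate 1 or knockout day 3 replicate 2, and Vldlr only with the mean of its probes in place of the brightest (limma adjusted p = 0.159). Without normexp and in the authors' processed table, the calls of Aldh1l2 at day 0 (limma adjusted p = 0.230 and 0.228), Cth at day 3 (0.176 and 0.175) and the average of Ddit4 (0.0540 and 0.0542) were lost. Atf5 was lost with median centring (0.0562), and with an intensity trend in the prior Atf5 and Nars were lost at day 0 (0.0667 and 0.101). With only the 4 arrays of the day, the calls of Aldh1l2, Atf5 and Nars at day 0 and of Cth at day 3 were lost (0.102 to 0.322). The average of Sesn2 was also lost with the offset of 50, under 3 other filters or probe choices and with the replicate block (0.0535 to 0.0732).

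Among neighbouring pathways, the serine, glycine and one-carbon list gave 1 of 10 higher in the average, Aldh1l2, none lower and a median of -0.08, beside 5.17% higher and 5.08% lower over all genes. The cytosolic aminoacyl-tRNA synthetases gave 1 of 18 higher, Nars, none lower and a median of 0.11, beside the same shares of all genes. Of their 18 differences, 14 were above 0, against 49.4% of the differences over all genes. The other lists had 10 of 18 above 0 (other ATF4-regulated genes), 4 of 10 (serine, glycine and one-carbon) and 3 of 8 (transporters). The rest had 2 of 5 (eIF2alpha kinases and phosphatase subunits), 6 of 16 (endoplasmic reticulum) and 5 of 9 (NRF2 targets). The amino acid transporters gave 2 of 8 higher, again beside 5.17%, none lower and a median of -0.03. Slc1a4, a carrier of alanine, serine and cysteine, was 0.47 ± 0.07 higher (SE, limma adjusted p = 8.2e-04). The Slc1a4 probe was above background on both arrays of a group at day 0 in both genotypes and at day 9 in the knockout, and on no other array, so its average includes days at which the level was not measured in either genotype. Slc7a3, a carrier of arginine and lysine, was 0.45 ± 0.12 higher (limma adjusted p = 0.0309), and its call was lost on leaving out any 1 of 11 arrays, all but control day 0 replicate 1, control day 3 replicate 2, control day 6 replicate 2, knockout day 3 replicate 1 and knockout day 9 replicate 2. It was also lost without normexp and in the authors' table (limma adjusted p = 0.0595 and 0.0596).

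By single days, 2 of the 8 transporters were called higher at day 3 and 1 at day 9, with 3.94% and 2.69% of all genes called higher, and none at days 0 and 6 (limma, unadjusted p below 0.05 for 1 on each). At day 3 these were Slc7a3 and Slc1a3, a glutamate and aspartate carrier named after its values were seen. Slc7a3 was 11.61 and 12.15 in knockout bodies, against 10.34 and 10.98 in control bodies, a difference of 1.22 ± 0.25 (SE, limma adjusted p = 0.0064). Slc1a3 was 8.27 and 8.52 in knockout bodies, against 6.55 and 7.40 in control bodies, with 1 control array above background and a difference of 1.41 ± 0.32 (SE, limma adjusted p = 0.0147). In both genes the knockout arrays lay above the control arrays, and both calls were lost without control day 3 replicate 1 or knockout day 3 replicate 2 and with only the arrays of the day (limma adjusted p = 0.0516 to 0.228). At day 9 Slc1a4 was 6.77 and 6.64 in knockout bodies, against 5.91 and 5.79 in control bodies, which were not above background, so it was at least 1.13-fold higher (limma adjusted p = 0.0023, held under all 27 alternatives).

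The eIF2alpha kinases and phosphatase subunits gave none of 5 in the average (limma, unadjusted p below 0.05 for 1), with a median of -0.03 and with 5.17% of all genes called higher and 5.08% lower. Eif2ak1, the heme-regulated kinase, was called higher at day 0 (limma adjusted p = 0.0481) with no fold, since control cells were not above background and the knockout values, 7.05 and 7.08, gave no bound above 1. It was the 1 of 5 called then, against 1.41% of all genes, a call lost under 20 of 27 alternatives, among them the removal of any 1 of 13 arrays, all but control day 0 replicate 1 and both control arrays of day 6. Eif2ak4, which encodes GCN2, had an average difference of -0.15. Both genes were named after their values were seen. The chaperones and the unfolded protein response of the endoplasmic reticulum gave none of 16 higher and 2 (against 5.08% of all genes) lower, Calr and Edem1, with differences of -0.72 and -0.40 (limma adjusted p = 0.0163 and 0.0151). The median of the 16 was -0.10. Calr, a calcium-binding chaperone, lost its call without control day 9 replicate 1 or knockout day 9 replicate 2 (limma adjusted p = 0.0500 and 0.0504). The NRF2 targets gave 1 of 9 higher (against 5.17% of all genes), Gclm, a subunit of the enzyme that starts glutathione synthesis, by 0.40 ± 0.09 (SE, limma adjusted p = 0.0080), none lower and a median of 0.02.

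**Figure D4:**
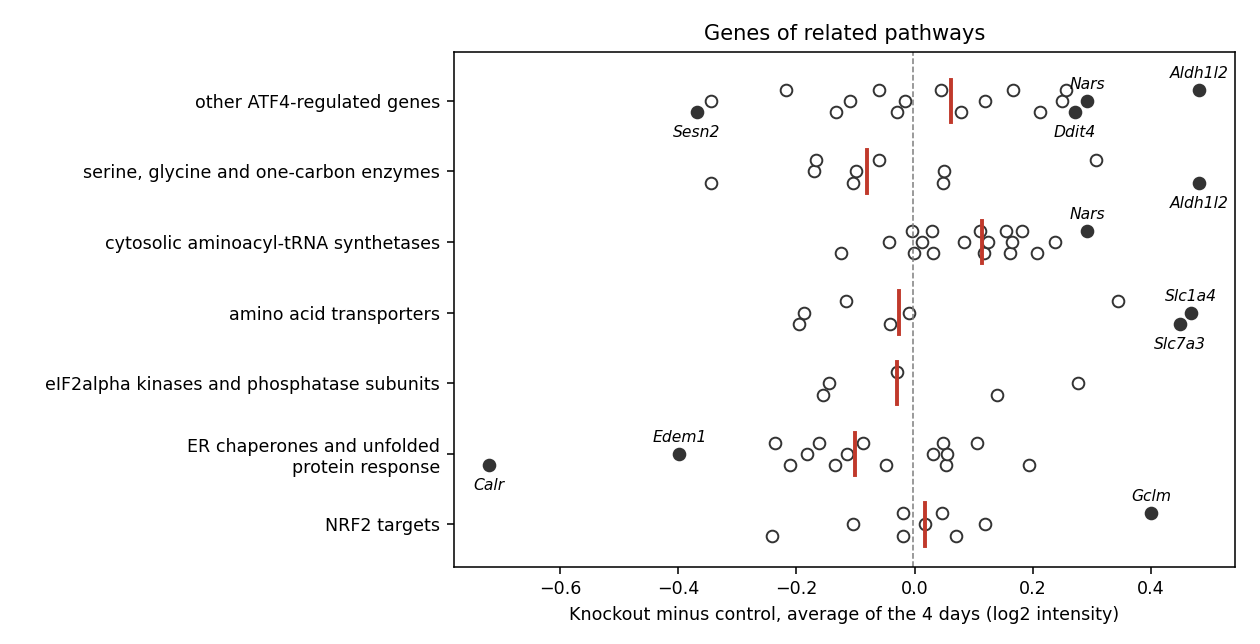
Knockout minus control difference in normalized log2 intensity, averaged over the 4 days (horizontal axis), for each tested gene of 7 lists (rows), with called genes filled and named, red lines at list medians and a dashed line at the median of all genes. Most genes of each list lie within 0.3 of 0, and the list medians run from -0.10 to 0.11.

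Across the 16 arrays, the 5 genes whose normalized log2 intensity followed Asns most closely by Pearson's r, among 7504 others, were Npl (0.955), Grhpr (0.953), Kcnk5 (0.942), Lin54 (0.934) and Nsf (0.933). Atf4 ranked 8th of the 7504 with 0.926 and Psat1 28th with 0.900. Mthfd2 ranked 38th (0.893), Chac1 226th (0.846), Ddit3 1639th (0.592) and Phgdh 2248th (0.456). Mthfd2 and Chac1 had passed the filter through day 0 groups alone, and Asns was also highest at day 0. Their r with Asns was thus favoured by the filter and is no result. By Spearman's correlation Mthfd2 ranked 454th and Chac1 1185th. These values mix the day and the genotype, since the arrays of a day share their stage.

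With the mean of each day taken out, so that the differences between genotypes remain, the order changed. Disp2 (0.982), Gdap1 (0.974), Chrnb2 (0.971), Celsr3 (0.970) and Vstm2l (0.967) then had the highest r with Asns. Their average knockout minus control differences were 3.72, 3.58, 2.03, 3.71 and 4.40, all larger than that of Asns. In control samples the deposited intensities of Disp2, Gdap1 and Chrnb2 reached at most 2.75, 22.5 and 12.8. These 3 genes thus passed the filter through knockout groups alone. The side of their differences, and an r that rests on it, is no result, and the sizes are not measured folds. Atf4 ranked 155th (0.784) and Psat1 704th (0.565) of 7504. The other tested members came lower: Mthfd2 1649th (0.342), Chac1 2050th (0.274), Ddit3 3593rd (0.016) and Phgdh 3848th (-0.024). The values of Mthfd2, Chac1 and Ddit3 include days without a measured level. Ranked by Spearman's correlation instead, 1 of the 5 genes stayed in the first 5 with day means taken out and 1 without.

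Markers of other cells moved with day and genotype beside these values, and their part in the differences was not tested. The summed normalized intensity of 7 pluripotency genes, all detected in both genotypes at day 0, was 67256 to 68548 in knockout cells at day 0, against 62187 to 64320 in control cells. At day 3 it was 30927 to 31207 in knockout bodies, against 25877 to 26785 in control bodies. Of 6 primitive streak genes, 5 were detected in knockout bodies and 6 in control bodies at day 3, with sums of 7420 to 11078 and 20651 to 22390, Lhx1 being the one not detected in the knockout. Of 8 visceral endoderm and liver genes, 7 passed the filter and were summed. Their summed intensity was 410 to 686 in knockout bodies at day 3, against 2581 to 2843 in control bodies. At day 6 it was 15057 to 16657 in knockout bodies, against 10978 to 12874 in control bodies, the other way round. At day 9 it was 23212 to 24689 in knockout bodies, against 38433 to 40445 in control bodies. Of the 8 genes, 6 were detected in knockout bodies and 7 in control bodies at day 9. Foxa2 was not detected in either genotype nor Alb in the knockout. Of 6 heart muscle genes, 3 were detected in knockout bodies and 4 in control bodies at day 9. The sums over the 4 of them that passed the filter were 2643 to 2839 and 4127 to 4827. Myh7 and Nppa were not detected in either genotype nor Myh6 in the knockout. Of 5 neural markers, 2 were detected in knockout bodies and 2 in control bodies at day 9. The sums over the 3 of them that passed the filter were 500 to 561 and 309 to 315. Pax6, Sox1 and Tubb3 were not detected in either genotype.

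The probe for Rest checked nothing here: it was not above background on any array, with intensities of 1.26 to 32.0 in knockout samples and 4.00 to 44.0 in control samples, and the sources used here do not place it relative to the deletion. Between 6300 and 9045 probes per array were above background. The lowest deposited intensity per array was -148 to -97.9 in knockout samples and -88.6 to -72.1 in control samples, and its part in the differences of dim genes such as Mthfd2 was not tested. On the scale used, log2 of the value plus 16, the change of dim genes is understated.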

How the data were processed

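Total RNA of 16 samples was hybridised as biotin-labelled cRNA to Illumina mouse bead arrays, per the labels. Per the file headers, the deposited table gave for each of 25697 probes an intensity without between-array normalization, and its detection p-value. Between 25.5% and 28.0% of the deposited intensities per array were below 0. A second deposited table held intensities normalized by the authors, as judged from column medians of 26.8 to 27.1, and was an alternative only. Scanner software, slides and scan times, not given in the sources used here, could not be set as batches.

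Values were background-corrected by normexp with the detection p-values (offset 16), quantile normalized and log2-transformed (limma 3.58.1, R 4.3.3, statmod 1.5.0). Arrays of a group correlated at 0.982 to 0.992. The filter kept 10241 probes. Symbols came from the platform annotation (23978 probes with 1 symbol, 1719 with none), and 23962 matched by Entrez identifier. The probe with the highest mean stood for each of 7505 genes. One limma fit over the 8 groups (8 residual and 6.40 prior degrees of freedom) gave 14 comparisons. Adjusted p-values are Benjamini-Hochberg over 7505 genes within a comparison. Lower bounds set the brighter mean against the lowest detected signal of the dim arrays. The members, lists and tests were chosen with earlier results of these data known. All 10 members were named with all probes. By rule, up to 4 genes per list called in the average, those with the largest difference, were named, and the 5 genes most like Asns. List genes called on single days, and Eif2ak4, were named after their values were seen. The test was run on simulated data first. Alternatives concerned background, offset, normalization, filter, probe choice, variance prior, the replicate block and arrays left out.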

Additional observations from a re-analysis of the deposited data

How the results depend on the processing

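Each result was recomputed under 27 alternatives for a single day and 26 for other comparisons, 16 of which leave out 1 array. The averages of Atf4 and Psat1 and the count of 2 genes higher over the days held under all 26. The Asns differences were between 0.67 and 0.78 at day 0, 0.44 and 0.54 at day 3, 0.98 and 1.29 at day 6, and 1.17 and 1.39 at day 9. At day 0 the count of genes called, 1 as reported, was 0 without normexp, in the authors' processed table, without the filter, with the replicate block and with only the 4 arrays of the day. It was 2 with the offset of 50 (Atf4 and Chac1), and between 0 and 1 with an array left out. At day 3 the count of 0 was 1 (Psat1) with the offset of 50 and with an intensity trend in the prior, and 0 to 1 with an array left out. At day 6 it was 1 (Psat1) with the trend, and 0 to 1 with an array left out. The causes were not tested. The average of Ddit3, near 0, changed sign to 0.028 without normexp, 0.00092 with the offset of 50 and 0.030 in the authors' table, and lay between -0.096 and 0.089 with an array left out. That of Phgdh turned to -0.0014 with median centring, and lay between -0.081 and 0.106 with an array left out. All were uncalled. The values showed little shared shift of same-numbered arrays: over 28 pairs of groups, their deviations correlated between -0.177 and 0.144, and 1 pair was above 0.1. These correlations cannot tell whether same-numbered samples shared a culture or a run, which the labels do not say. With the replicate block the Atf4 difference at day 0 was 0.74 (limma adjusted p = 0.0546), and the averages of Ddit4 and Sesn2 were lost (limma adjusted p = 0.0506 and 0.0629). Each group's 2 arrays limit the precision, and the dim genes carry only bounds.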
